A study of Danio rerio with 94 samples.

Results

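The genes described here are those of the ubiquitin and proteasome system on a targeted zebrafish panel. They were chosen by symbol, taking the UBE, UBA, USP, PSMA to PSMG, FBX, CUL and UCHL series. A single member of the USP series was left out by the rule. The rule found 47 of the 3068 measured genes, among them 8 E2 enzymes, 6 USP genes, 5 F-box genes, 2 UBE3 ligases, 2 UBA genes and 24 proteasome genes. The panel held no cullin and no UCHL gene under this rule. A gene symbol is no proof of function: USP6NL, in the list by name alone, encodes a GTPase-activating protein of Rab GTPases, not a deubiquitinase.

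Ubiquitin is a small protein that is attached to other proteins to mark them for degradation or to change what they do. An E1 enzyme activates it, an E2 enzyme carries it, and an E3 ligase picks the target, for which F-box proteins serve as the substrate receptors of one ligase family. Deubiquitinases, to which most USP proteins belong, take it off again. The proteasome, a barrel of alpha and beta subunits (PSMA, PSMB) capped by a regulatory particle of ATPases (PSMC) and other subunits (PSMD), unfolds and digests marked proteins. In a growing embryo the system is known for clearing maternal and cell cycle proteins. Roles below are those of the human or yeast counterparts.

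Embryos of the 5D wild-type zebrafish strain were exposed in sealed glass vials to 20 µM of 1 of 22 chemicals, or to the DMSO vehicle, from 6 to 24 h post fertilization (hpf), and whole embryos were collected at 48 hpf. The chemicals were naphthalene, a ring pair without side chains, and 21 alkyl naphthalenes that carry methyl, ethyl, isopropyl, butyl or tert-butyl groups. Each chemical had 4 pools of 6 embryos that looked normal, which the paper describes as pooled by vial group. On each of 2 days 11 chemicals were exposed, and the 5 control pools (2 of day 1 and 3 of day 2) served all chemicals. RNA was counted by TempO-Seq, in which probe pairs that meet on an RNA are ligated and sequenced. The values are normalized log2 CPM, read counts scaled to a common library size. A difference of 1 on this scale is a doubling. Values of different genes are not compared, since probes differ in number and efficiency.

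Each pool held 7.21 to 16.5 M (mega) reads, and 293 to 541 genes per pool had no reads. Those are totals after the authors' correction for day. Control day 1 pool B has no values here, since the authors removed a day 1 control as an outlier. Marker lists of 10 tissues were checked against the label of whole animals. In exposed pools the summed markers of epidermis (2 measured genes) were at 6700 to 13764 CPM. Those of skeletal muscle (1 gene) were at 3106 to 15580 CPM, and those of liver, pancreas and gut (5 genes) at 2735 to 5921 CPM. Neurons and glia were at 202 to 394 CPM and macrophages and neutrophils at 214 to 568 CPM. Erythroid cells were at 30.3 to 135 CPM, and notochord, cartilage and skeleton at 186 to 1456 CPM. The single measured retina and lens marker stayed at 0 to 1.73 CPM and that of the heart at 0 to 15.7 CPM. That of the endothelium was at 0.087 to 17.3 CPM. These sums come from different probes, so they do not rank the tissues. A pool of whole embryos cannot tell fewer cells of a type from less RNA per cell. Between the control days 0 of 47 members, and 0 of all 3068 genes, differed at an adjusted p of 0.05 (limma), with 2 members and 229 genes at an unadjusted p under 0.05. Those members were PSMB6 and USP22, higher on day 2 by 0.41 and 0.43 log2 units. The comparison set 2 pools against 3, on values that the authors had already corrected for day. The lack of calls therefore does not show that the control days were alike.

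Few tests of ubiquitin and proteasome genes were called. Genes were called differentially expressed (DEGs) where limma's adjusted p did not exceed 0.05 and the log2 fold change (log2FC) reached 1 in size. Of 1034 tests of a member against the controls, 4 met this (0.387%), beside 0.324% of all tests of a gene in the 22 comparisons. All 4 were increases of a single gene, UBE2G1A, in 1-methylnaphthalene, 1,3-dimethylnaphthalene, 2-butylnaphthalene and 2,6-diisopropylnaphthalene. Those chemicals had a background of 0.391%, 0.489%, 0.522% and 0.163% DEGs in that order. With the adjusted p alone, 15 member tests passed (1.45%, beside 1.2% of all tests), 13 as increases and 2 as decreases, in 6 members and 8 chemicals. The member shares were close to the background, so the list as a whole did not stand out by its counts. Its median log2FC lay between -0.10 and 0.10 over the chemicals, where that of all genes lay between -0.04 and 0. In 24 of the 1034 member tests all pools of the chemical lay above all control pools and in 11 below them, beside 1.58% and 2.28% of all tests. Of the 24, FBXO5 gave 11 and UBE2G1A 9, each set against the same 5 control pools. The heatmap of log2FC sets the 15 calls among the other members.

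**Figure D1:**
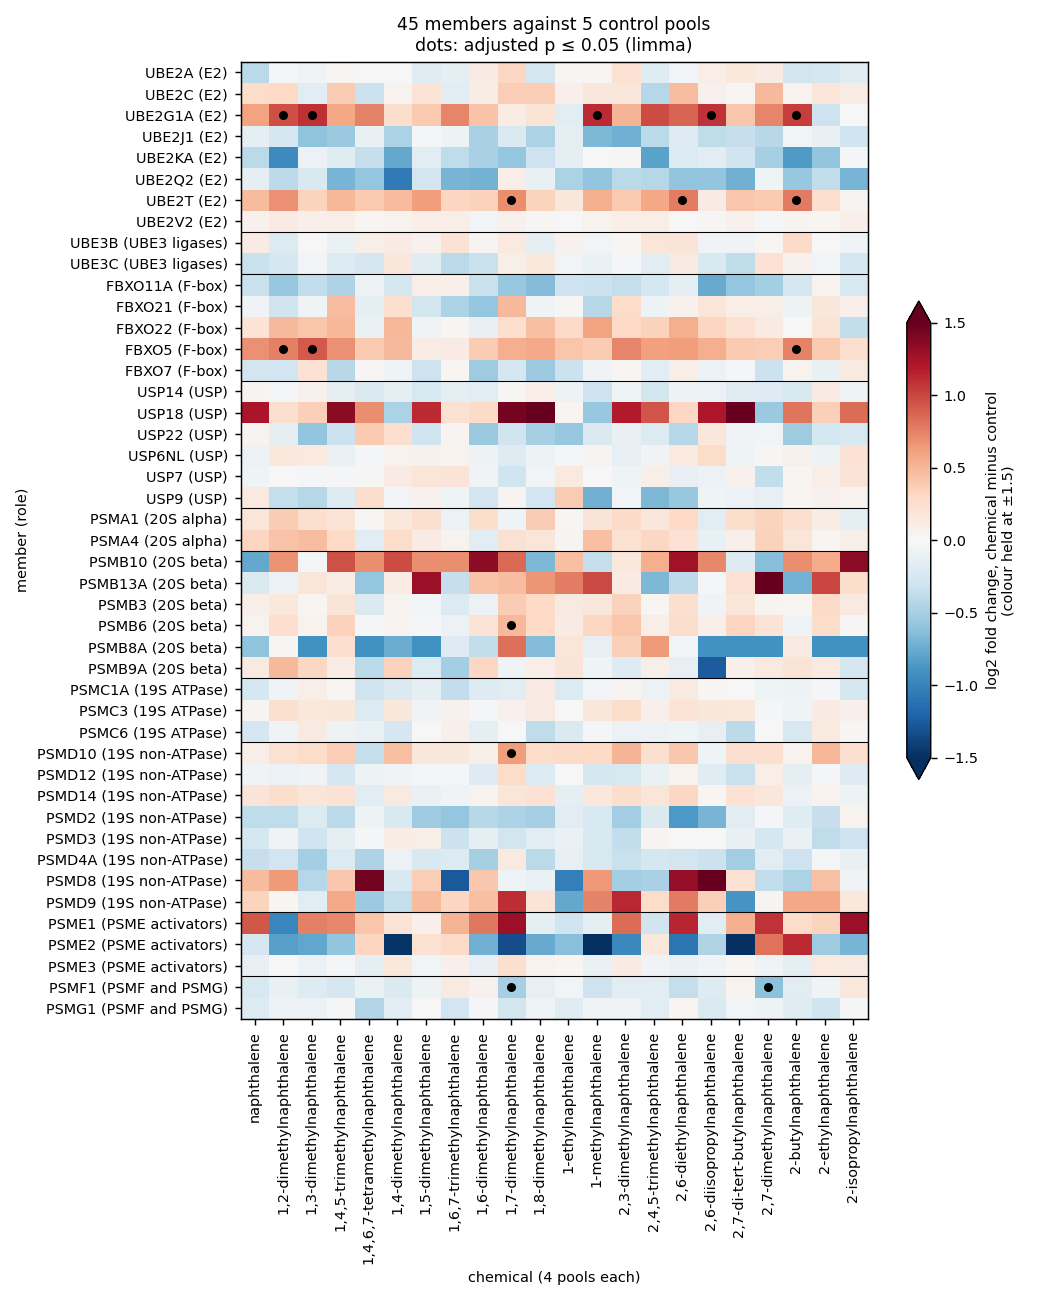
Log2 fold change of 45 of the 47 members (vertical axis, grouped by role, the UBA genes not drawn) in each of the 22 chemicals (horizontal axis, 4 pools each) against the 5 control pools, in colour held at ±1.5, with a dot where limma's adjusted p was at most 0.05. The 15 dots fall on UBE2G1A, UBE2T, FBXO5, PSMB6, PSMD10 and PSMF1, and the strong colours without dots belong mainly to the 8 members with a mean under 5 CPM.

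UBE2G1A, an E2 enzyme known for building chains that send proteins to the proteasome, had the widest range of group means among the members with a call. Its level in the controls was 6.69 and 7.32 in the day 1 pools and 6.90, 7.14 and 7.21 in the day 2 pools, a mean of 7.05 ± 0.26 (SD, n = 5). In 1-methylnaphthalene the 4 pools held 8.70, 8.04, 7.69 and 8.26, all above the highest control pool, and log2FC was 1.12 ± 0.28 (SE, adjusted p = 0.0133). In 1,3-dimethylnaphthalene they held 8.53, 7.78, 7.58 and 8.71 (log2FC 1.098, adjusted p = 0.0165). These 2 groups were spread over a whole log2 unit, yet neither overlapped the controls.

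In 2,6-diisopropylnaphthalene, which carries a pair of branched 3-carbon groups, UBE2G1A was at 8.50, 7.69, 7.83 and 8.53 (log2FC 1.09, adjusted p = 0.0338). In 2-butylnaphthalene it was at 8.19, 7.75, 8.06 and 8.36 (log2FC 1.04, adjusted p = 0.0355). Another group, 1,2-dimethylnaphthalene, passed the adjusted p but not the fold, at 8.32, 7.77, 7.59 and 8.42 (log2FC 0.97, adjusted p = 0.0443). Each of the 5 groups lay wholly above the controls. The exact permutation test must then give the smallest p that 4 against 5 pools allow, 0.0159 (two-sided, unadjusted). This p restates the lack of overlap and is no separate support. In the trimethyl compound with its methyl groups at positions 2, 4 and 5 the pools were at 7.85 to 8.20 with log2FC 0.98 and an adjusted p of 0.0557, just past the threshold.

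A further 3 groups lay wholly above the controls without a call. UBE2G1A was at 7.41 to 7.84 in naphthalene (log2FC 0.60, adjusted p = 0.524), at 7.48 to 8.52 in 2,6-diethylnaphthalene (0.87, adjusted p = 0.0844) and at 7.38 to 7.90 in the compound with methyl groups at positions 1, 4 and 5 (0.58, adjusted p = 0.352). In all, 9 of 22 groups lay wholly above the controls, beside 1.58% of all tests of a gene, and 61 of 88 exposed pools exceeded the highest control pool. Every pool was set against the same 5 control pools, so these counts are not independent of each other. For the count of pools no share over all genes is given.

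The lowest groups overlapped the controls. In 2-ethylnaphthalene the pools held 6.75, 6.86, 6.68 and 6.68, the lowest group mean and the smallest spread (6.74 ± 0.083, SD, n = 4). In 2-isopropylnaphthalene they lay at 6.86 to 7.33 (log2FC -0.0034, 95% interval -0.56 to 0.55) and in 1,7-dimethylnaphthalene, which had the most genes called, at 6.77 to 7.66 (log2FC 0.12, interval -0.44 to 0.67). In the order of group means every neighbouring pair of groups overlapped, as the plot of UBE2G1A in every pool shows. In 2,7-dimethylnaphthalene 3 pools were at 8.40, 8.22 and 8.18 and pool E was at 6.35, below every control pool. With pool E the log2FC was 0.73 (adjusted p = 0.156), and without it 1.21 (adjusted p = 0.0058).

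**Figure D2:**
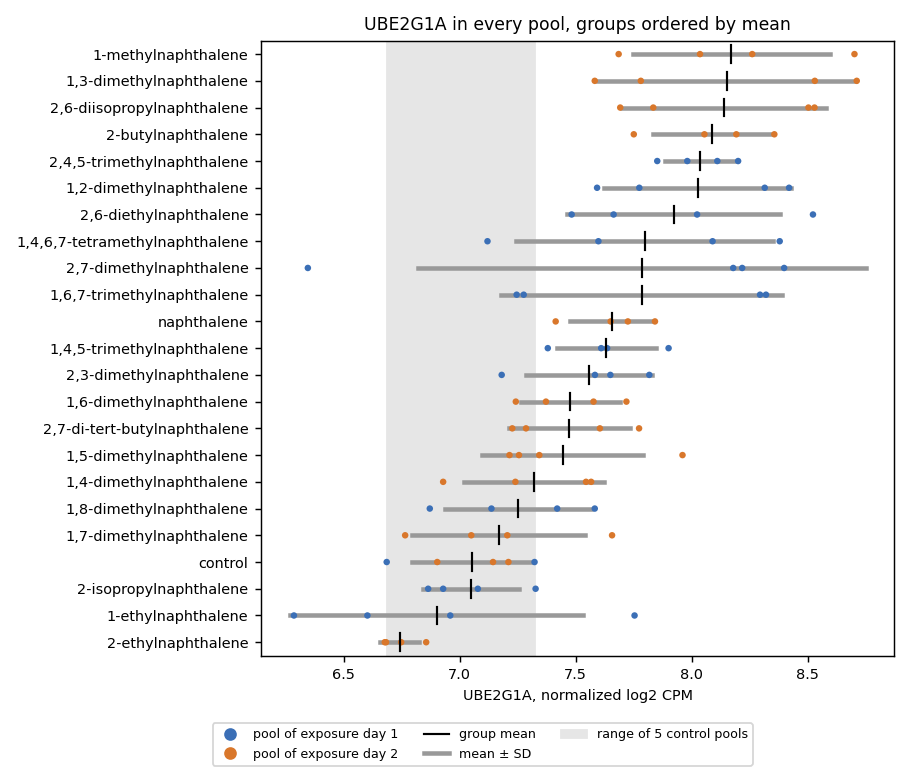
Normalized log2 CPM of UBE2G1A (horizontal axis) in each pool of the 22 chemicals and the controls (vertical axis, ordered by group mean), coloured by exposure day, with the group mean, mean ± SD and the range of the 5 control pools as a grey band. Group means run from 6.74 in 2-ethylnaphthalene to 8.17 in 1-methylnaphthalene, and the control pools span 6.69 to 7.32.

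The UBE2G1A calls depended on the control pools. Against the controls of their own day alone (3 pools for these 4 chemicals, which were all exposed on day 2), log2FC stayed at 1.00 to 1.09, but the adjusted p rose to 0.075 to 0.141 and none of the 4 was called. Without control day 1 pool A, the lowest control, log2FC was 1.03 in 1-methylnaphthalene, 1.01 in 1,3-dimethylnaphthalene, 0.94 in 2-butylnaphthalene and 0.99 in 2,6-diisopropylnaphthalene, at adjusted p values of 0.0506, 0.0641, 0.0963 and 0.124. Leaving out 1 pool of the chemical also ended each call. This held for 1-methylnaphthalene pool A (log2FC 0.94), 1,3-dimethylnaphthalene pools A and E (0.97 and 0.91), 2-butylnaphthalene pools A, C and E (1.00, 1.05 and 0.95) and 2,6-diisopropylnaphthalene pools B and E (0.97 and 0.96). Control day 2 pool A ended the calls of 2-butylnaphthalene (1.00) and 2,6-diisopropylnaphthalene (1.05), and control day 2 pool B that of 2,6-diisopropylnaphthalene (1.11, adjusted p = 0.0534). The call of 1,2-dimethylnaphthalene was lost without its pools B, C or E or without any of 4 control pools (log2FC 0.84 to 1.06, adjusted p 0.0504 to 0.158).

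UBE2G1A varied together with genes outside the ubiquitin system, chosen after their values were seen. Across the 93 pools its level followed that of CSNK1A1, casein kinase 1 alpha, with Pearson's r = 0.91 and Spearman's rho = 0.91. Next came RPL15, a protein of the large ribosomal subunit (r = 0.89, rho = 0.90), CALR, the chaperone calreticulin of the endoplasmic reticulum (r = 0.85, rho = 0.86), and MPC2, a subunit of the mitochondrial pyruvate carrier (r = 0.79, rho = 0.75). HOXB2A, a homeobox gene, ran the other way (r = -0.79, rho = -0.79). These were the 5 strongest correlations of UBE2G1A with any gene of the panel, and the pools share controls, exposure days and normalization.

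The relation held within groups as well as between them. After the mean of each group was taken off, r was 0.84 for CSNK1A1, 0.80 for RPL15, 0.77 for CALR and 0.71 for MPC2. Within day 1 the r of CSNK1A1 was 0.89 and within day 2 it was 0.94, and without the 2 pools farthest from its median it was 0.91. The level of UBE2G1A had r = -0.15 with the total reads of the pool and r = 0.02 with the number of genes without reads. CSNK1A1 was higher in the same 4 chemicals by 0.99, 0.91, 0.99 and 0.97 (1-methyl, 1,3-dimethyl, 2-butyl and 2,6-diisopropyl, adjusted p 0.00303 to 0.00705). MPC2 also passed the adjusted p in all 4 chemicals. RPL15 passed it in all but 1,3-dimethylnaphthalene (adjusted p = 0.0567), and CALR in 1,3-dimethylnaphthalene alone (adjusted p = 0.0486). All are set against the same 5 control pools as UBE2G1A. The genes were picked for following UBE2G1A, so their rise is no separate support.

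**Figure D3:**
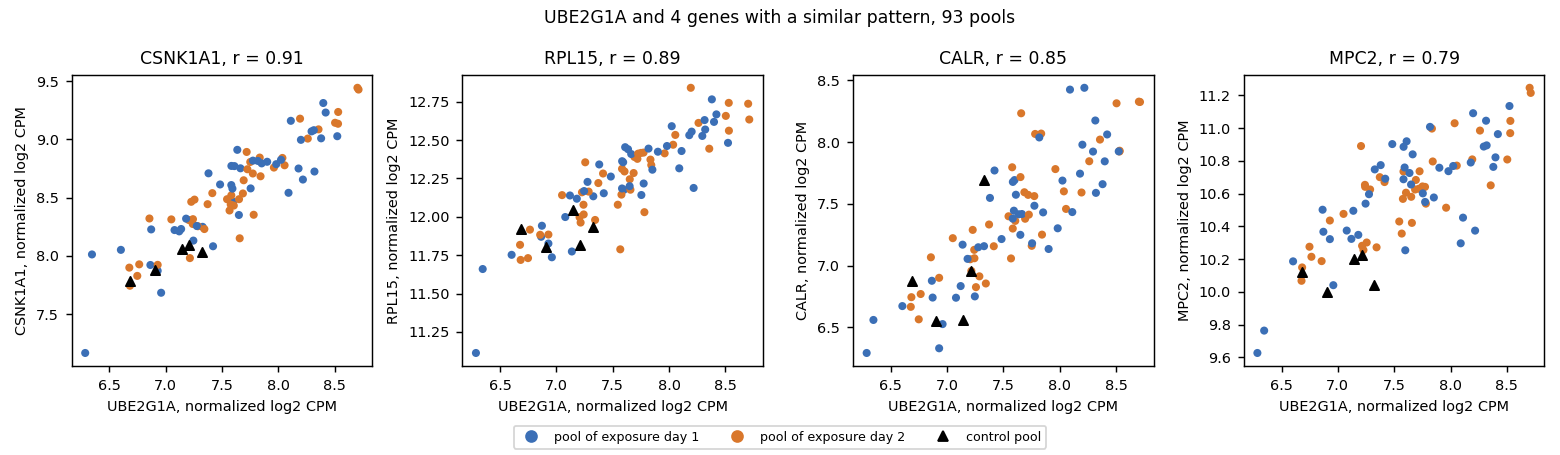
Normalized log2 CPM of CSNK1A1, RPL15, CALR and MPC2 (vertical axes) against that of UBE2G1A (horizontal axes) in 93 pools, exposed pools coloured by day and control pools as triangles. Pearson's r is 0.91, 0.89, 0.85 and 0.79, and the control pools lie at the lower end of UBE2G1A.

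UBE2T, the E2 enzyme that modifies FANCD2 in the Fanconi anaemia pathway of DNA crosslink repair, was higher in 3 chemicals. The controls held 5.20 and 5.50 on day 1 and 4.53, 4.47 and 5.10 on day 2 (mean 4.96). In 2-butylnaphthalene the pools were at 5.75, 5.78, 5.65 and 5.79, tight and all above the controls (log2FC 0.78, adjusted p = 0.0379). In 2,6-diethylnaphthalene they were at 5.27, 5.80, 6.04 and 5.77 (0.76, adjusted p = 0.0467), and in 1,7-dimethylnaphthalene at 5.39, 5.81, 5.87 and 5.55 (0.70, adjusted p = 0.0364). Both of these groups overlapped the controls. Against day 2 controls alone UBE2T reached log2FC 1.04 in 2-butylnaphthalene (adjusted p = 0.0128) and 0.96 in 1,7-dimethylnaphthalene (adjusted p = 0.0138), and against day 1 controls 0.37 in 2,6-diethylnaphthalene (adjusted p = 0.547).

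The UBE2T calls were each lost on leaving out a single pool. For 2-butylnaphthalene these were each of its own 4 pools and the 3 day 2 controls (log2FC 0.66 to 0.82, adjusted p 0.0518 to 0.141). For 1,7-dimethylnaphthalene they were its pools C and D and control day 2 pools A and B (0.58 to 0.65, adjusted p 0.0993 to 0.119). For 2,6-diethylnaphthalene they were its pools C, D and E, control day 1 pool A, all 3 day 2 controls (0.64 to 0.82, adjusted p 0.0516 to 0.202) and 6 pools of other chemicals, which left the log2FC at 0.76 and moved the adjusted p to between 0.0502 and 0.0508.

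UBE2A, known in yeast as RAD6 and in human cells for ubiquitylating histone H2B and PCNA, differed among the groups without a call against the controls. By limma's F test over the 23 groups it ranked 14th of 3068 genes (adjusted p = 3.21e-05). The controls held 9.05 to 9.31, and the pools of naphthalene 8.78, 8.84, 8.69 and 8.78, all below them. The pools of 2-ethylnaphthalene, at 8.89, 8.94, 8.92 and 8.89, also lay wholly below the controls. The group means of 2-butylnaphthalene (8.91) and 1,8-dimethylnaphthalene (8.92) were close to that of 2-ethylnaphthalene (8.91). At the other end stood 1,7-dimethylnaphthalene with 9.61, 9.60, 9.50 and 9.26. Against the controls the differences were -0.41 for naphthalene (adjusted p = 0.190) and 0.31 for 1,7-dimethylnaphthalene (adjusted p = 0.0651).

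The remaining E2 enzymes had no call against the controls. UBE2J1, an E2 of the endoplasmic reticulum membrane, was highest in the controls (mean 5.59), with log2FC of -0.72 to -0.01 and a lowest adjusted p of 0.0747. UBE2C, the E2 of the anaphase-promoting complex, ranged from -0.43 to 0.49. UBE2V2, a variant that pairs with another E2 and carries no active site, was the steadiest of the E2 genes, with an SD between pools of 0.09 and log2FC of -0.04 to 0.12. UBE2Q2, an E2 named here after its values were seen, was not called with all genes tested, at -1.06 in 1,4-dimethylnaphthalene (adjusted p = 0.0660). When only the 2089 genes with a mean of at least 5 CPM were tested, its adjusted p there was 0.0426, which met the DEG thresholds. It lay below the lowest control pool in 54 of 88 exposed pools, all of them set against the same 5 control pools. The members PSMD2 and FBXO11A, neither of them called, lay below theirs in 46 and 43 of 88 pools. No share over all genes is given for such counts.

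Among the F-box genes, FBXO5 was the one member that differed between all exposed pools and the controls. FBXO5, also called EMI1, is an inhibitor of the anaphase-promoting complex, the ligase that ends mitosis. Its control pools held 5.06 and 5.60 on day 1 and 5.65, 5.31 and 5.43 on day 2. Over the 88 exposed pools, 71 lay above the highest control pool and none lay below the lowest. With the same 5 control pools behind each comparison, the counts are not independent, and no share over all genes is given for them. The mean of the 22 group means exceeded the control mean by 0.51 ± 0.14 (SE, adjusted p = 0.0324). In this contrast 1 of 47 members was called (2.13%), beside 2.97% of all genes, or 1.21% counting increases alone. UBE2G1A (0.56) and UBE2T (0.44) had adjusted p values of 0.0955 each.

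By chemical, FBXO5 was higher in 3 comparisons. In 1,3-dimethylnaphthalene the pools held 6.04, 6.18, 6.12 and 6.96 (log2FC 0.92 ± 0.21, adjusted p = 0.00712). In 1,2-dimethylnaphthalene they held 5.80, 5.76, 6.44 and 6.64 (0.75, adjusted p = 0.0362), and in 2-butylnaphthalene 6.49, 6.28, 5.70 and 6.13 (0.74, adjusted p = 0.0426). None of these groups overlapped the controls. Against same-day controls 1,3-dimethylnaphthalene kept its call (0.86, adjusted p = 0.0491), while 1,2-dimethylnaphthalene (0.83, adjusted p = 0.0933) and 2-butylnaphthalene (0.69, adjusted p = 0.177) did not.

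Single pools also decided the FBXO5 calls. The all-exposed call was lost without control day 1 pool A (0.42, adjusted p = 0.217), control day 2 pool B (0.48, adjusted p = 0.0915) or control day 2 pool C (0.51, adjusted p = 0.0693). That of 1,3-dimethylnaphthalene was lost without its pool E (0.70, adjusted p = 0.121). That of 1,2-dimethylnaphthalene was lost without its pools D or E, control day 1 pool A or control day 2 pools B or C (0.59 to 0.76, adjusted p 0.0578 to 0.193). That of 2-butylnaphthalene was lost without its pools A, B or E or without any control but control day 2 pool A (0.63 to 0.79, adjusted p 0.0523 to 0.220).

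FBXO22, a substrate receptor known for the lysine demethylases it degrades, differed among the groups (F test, adjusted p = 0.00607), from 5.26 in 2-isopropylnaphthalene to 6.23 in 1-methylnaphthalene, but the controls ranged from 5.04 to 6.22 and no chemical was called. FBXO11A had its lowest group mean, 5.00, in 2,6-diisopropylnaphthalene (log2FC -0.75, adjusted p = 0.0810). FBXO7 and FBXO21 had no call either.

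**Figure D4:**
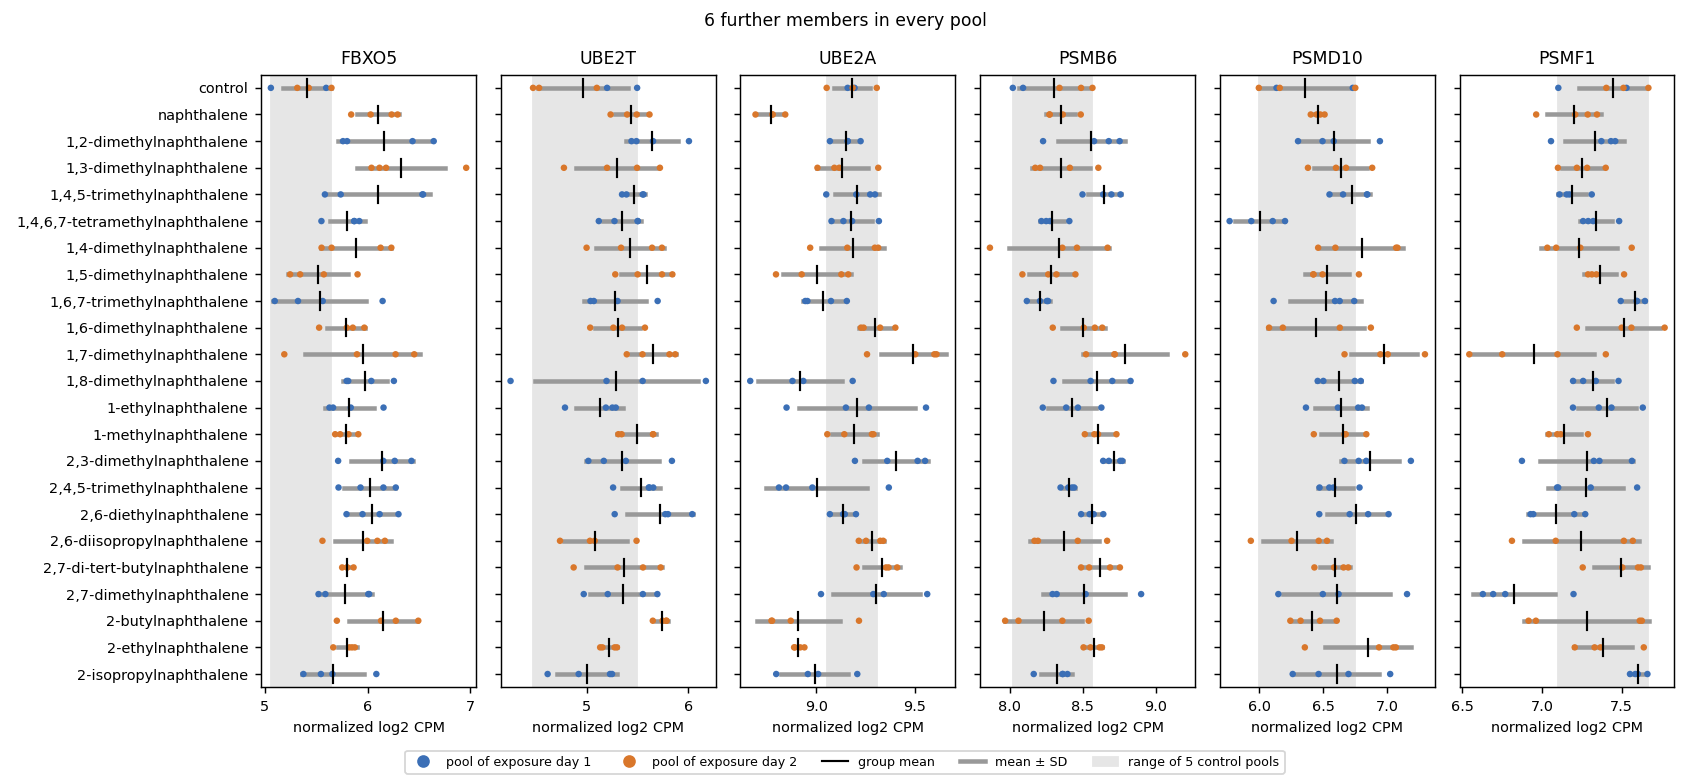
Normalized log2 CPM (horizontal axes) of FBXO5, UBE2T, UBE2A, PSMB6, PSMD10 and PSMF1 in each pool of the controls and the 22 chemicals (vertical axis), coloured by exposure day, with group mean, mean ± SD and the range of the 5 control pools in grey. FBXO5 lies above the grey band in 71 of 88 exposed pools. UBE2A falls wholly below it in naphthalene and 2-ethylnaphthalene, and PSMF1 is lowest in 2,7-dimethylnaphthalene and 1,7-dimethylnaphthalene.

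In the proteasome, 3 of 24 genes had a call in at least 1 chemical, beside 11.2% of all genes. All were at less than 1 log2 unit, and 1,7-dimethylnaphthalene was among the chemicals for each. That chemical had 6.1% of all genes past the adjusted p, the most of any, and 4 of 47 members. PSMB6, the beta subunit that cuts after acidic residues, was at 9.20, 8.72, 8.72 and 8.52 there, against 8.02 to 8.57 in the controls (log2FC 0.49 ± 0.13, adjusted p = 0.0108). PSMD10, or gankyrin, a chaperone of regulatory particle assembly, was at 7.30, 6.95, 6.67 and 7.01, against 6.00 to 6.75 (0.62 ± 0.17, adjusted p = 0.0169). PSMF1, or PI31, a protein that binds and inhibits the proteasome in vitro, fell, at 6.75, 7.40, 6.54 and 7.10, against 7.10 to 7.67 (-0.49 ± 0.15, adjusted p = 0.0297). All 3 groups overlapped the controls by at least 1 pool.

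PSMF1 was also lower in 2,7-dimethylnaphthalene, at 6.63, 6.77, 7.20 and 6.69 (log2FC -0.62 ± 0.15, adjusted p = 0.00873), where 2.15% of all genes passed the adjusted p. The other chemicals with a member call had 1.79% (1-methyl), 2.12% (1,2-dimethyl), 1.86% (1,3-dimethyl), 1.69% (2-butyl), 1.53% (2,6-diethyl) and 0.75% (2,6-diisopropyl) of all genes past it. Against same-day controls the call of PSMF1 in 2,7-dimethylnaphthalene (-0.49, adjusted p = 0.190) and that of PSMB6 (0.33, adjusted p = 0.256) were lost, while PSMD10 (0.68, adjusted p = 0.0449) and PSMF1 in 1,7-dimethylnaphthalene (-0.58, adjusted p = 0.0418) were called. All 3 genes passed the F test over the groups, with adjusted p values of 0.00679, 0.0152 and 0.00882 for PSMB6, PSMD10 and PSMF1. By that test 6 of 47 members (12.8%) differed, beside 7.95% of all genes. FBXO5 (adjusted p = 0.0571) and UBE2T (adjusted p = 0.146) did not pass it, though each had chemical calls. UBE2A and FBXO22 passed it without a chemical call.

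Leaving out 1,7-dimethylnaphthalene pool B ended its calls of PSMB6 (0.35, adjusted p = 0.166), PSMD10 (0.52, adjusted p = 0.133) and PSMF1 (-0.43, adjusted p = 0.154). PSMB6 was also lost without control day 1 pool A (0.42, adjusted p = 0.0592). PSMD10 was lost without control day 1 pool C (0.57, adjusted p = 0.05005) or control day 2 pool A (0.53, adjusted p = 0.0678). PSMF1 was lost without pool D (-0.36, adjusted p = 0.185), control day 1 pool A (-0.47, adjusted p = 0.0702) and control day 2 pools A and B (-0.48 and -0.44, adjusted p 0.0608 and 0.0815). In 2,7-dimethylnaphthalene its call was lost without pool B (-0.56, adjusted p = 0.0552).

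The other proteasome genes had no call against the controls. Over the 17 proteasome genes with a mean of at least 5 CPM, the median log2FC was between -0.15, in the tetramethyl compound, and 0.10, in 1,8-dimethylnaphthalene, where the median of all genes at that level was between -0.04 and -0.0019. PSMA1, an alpha subunit, ranged from -0.17 to 0.39 over the chemicals. PSMB3, a structural beta subunit, ranged from -0.22 to 0.38. PSMC3, an ATPase, ranged from -0.21 to 0.26 and PSMD14, which removes ubiquitin from substrates at the proteasome, from -0.15 to 0.31. PSME3, the nuclear activator, ranged from -0.14 to 0.24, and PSMG1, an assembly chaperone of the core, from -0.44 to 0.03. None of these 6 had an adjusted p at or below 0.05, and the lowest was 0.112. Wider ranges were found in PSMB9A, an immunoproteasome beta subunit (-1.25 to 0.49), and in PSMD2, a scaffold subunit of the regulatory particle (-0.86 to 0.05), both named after their values were seen. PSMB9A had its -1.25 in 2,6-diisopropylnaphthalene, where pools B to E were at 1.81, 3.68, 2.51 and -0.25, against 2.34 to 3.75 in the controls. Pool E was the lowest of all pools for this gene and weighs heavily in the mean. PSMB9A was not called there with all pools, and was called without pool C, the highest (-1.83, adjusted p = 0.0233).

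The ligases and deubiquitinases had no call against the controls. UBE3B and UBE3C, ligases of the HECT type, ranged from -0.40 to 0.29. USP7, which stabilizes MDM2 and p53, had a lowest adjusted p of 0.110 and an F test adjusted p of 0.0794. Of the 39 members with a mean of at least 5 CPM, 33 were not called in any of the 22 comparisons and 6 were, beside 14.4% of all genes at that level called in at least 1.

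Low counts limited 8 members, which had a mean under 5 CPM: PSMB8A, PSMB10, PSMB13A, PSME1, PSME2, PSMD8, PSMD9 and USP18. Several of these are known for immune tissue, PSMB8A and PSMB10 as immunoproteasome subunits, PSME1 and PSME2 as interferon-induced activators, and USP18 for removing the interferon-induced modifier ISG15. PSMB8A had no reads in 65 of 93 pools, PSME2 in 51, PSMB13A in 32 and USP18 in 14. Their log2FC ran from -1.60 to 1.78, wider than those of the members above, and 0 of 176 tests passed, the lowest adjusted p being 0.398. With SDs between pools of 1.12 to 1.74, a difference of 1 log2 unit could not be told from this spread.

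Pairs of chemicals of the same exposure day that differ by a named change in structure were compared directly, 26 pairs in all. Of 1222 member tests, 2 met the DEG thresholds (0.164%, beside 0.114% of all genes) and 12 the adjusted p alone (0.982%, beside 0.509%). The larger DEG was UBE2G1A in 2-butylnaphthalene over 2-ethylnaphthalene, a longer chain at the same position. Its pools did not overlap, and the difference was 1.35 ± 0.29 (SE, adjusted p = 0.00886 over genes and 4.36e-04 over the 26 pairs). The p over the pairs allows for the number of pairs of 1 gene. It does not allow for the choice of that gene among all genes, and no call rests on it. The second was UBE2G1A in 1,7-dimethylnaphthalene below 1-methylnaphthalene, which lacks the methyl group at position 7, at a difference of -1.002 (95% interval -1.58 to -0.42, adjusted p = 0.0468, over the pairs 0.0107).

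A methyl group at position 3 instead of 7 gave no call in UBE2G1A. The contrast of 1,3-dimethylnaphthalene with 1-methylnaphthalene was -0.02, with an interval of -0.60 to 0.56, which does not exclude a moderate change either way. The contrast of 1,7- with 1,3-dimethylnaphthalene was -0.98 (adjusted p = 0.0536, over the pairs 0.0107), that of 1,7- with 1,4-dimethylnaphthalene -0.15 (interval -0.73 to 0.43), that with 1,5-dimethylnaphthalene -0.27 (-0.86 to 0.31) and that with 1,6-dimethylnaphthalene -0.31 (-0.89 to 0.27). An ethyl group at position 2 (2-ethylnaphthalene minus naphthalene) gave -0.92 (-1.499 to -0.33), at an adjusted p of 0.275 over genes and 0.0159 over the pairs. Without 2-butylnaphthalene pool E the first pair had 1.26 (adjusted p = 0.0566). The call of 1,7-dimethyl against 1-methyl was lost without 1,7-dimethylnaphthalene pools B, C or E, 1-methylnaphthalene pools A, B or E or naphthalene pool B (-1.05 to -0.82, adjusted p 0.05005 to 0.159).

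UBE2A was higher in both bulky dialkyl naphthalenes than in naphthalene of the same day. The difference was 0.56 ± 0.11 for 2,7-di-tert-butylnaphthalene (pools 9.41, 9.37, 9.35 and 9.20, adjusted p = 0.00516, over the pairs 1.09e-04), a call that no single left-out pool ended. It was 0.51 for 2,6-diisopropylnaphthalene (9.34, 9.25, 9.32 and 9.22, adjusted p = 0.0350), lost without its pools B or D or naphthalene pools A or C (0.48 to 0.51, adjusted p 0.0822 to 0.145). The contrast of the bulky pair itself was 0.05 (interval -0.17 to 0.27). Naphthalene had the lowest UBE2A mean of the 23 groups, 8.77, so any other group lay above it. The controls were at 9.18, 2,7-di-tert-butylnaphthalene at 9.33 and 2,6-diisopropylnaphthalene at 9.28, and neither of the bulky compounds was called against the controls. UBE2A was also higher in 1,7- than in 1,5-dimethylnaphthalene, by 0.49 (adjusted p = 0.00887), a call lost without pool B of the first or pool A of the second (0.45 and 0.42, adjusted p 0.0642 and 0.0611).

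Further pair calls, in 4 members, each set 1,7-dimethylnaphthalene against 1-methylnaphthalene or a dimethyl isomer. PSMB6 was higher than in 1,5-dimethylnaphthalene (0.51, adjusted p = 0.0223), and PSMD12, a lid subunit of the regulatory particle, higher than in 1-methylnaphthalene (0.55, adjusted p = 0.0358), with pools that did not overlap. USP7 was lower than in 1,5-dimethylnaphthalene (-0.48, adjusted p = 0.0316), and PSMF1 lower than in 1,6-dimethylnaphthalene (-0.56, adjusted p = 0.0274). Each of these 4 calls was lost without 1,7-dimethylnaphthalene pool B (adjusted p 0.120 to 0.256) and on leaving out any 1 of 2 to 5 further pools of its own pair (adjusted p 0.0538 to 0.176). The exact permutation test was run only on calls already made. It gave its smallest possible p for 4 against 4 pools, 0.0286, in 8 of the 12 pair calls and 0.0571 in the rest. That smallest p follows from pools that do not overlap and is no separate support.

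The spread between pools was smaller for the members than for the panel. The median SD within groups was 0.31 log2 units for the members and 0.50 for all genes, or 0.29 and 0.35 for those with a mean of at least 5 CPM. Some proteasome genes moved together between pools of the same group, and others moved in opposite directions. Over the 136 pairs of 17 proteasome genes, the median r of the deviations from group means was 0.10 (rho 0.11) and 69.9% of pairs were above 0, where pairs of all genes at that level had a median r of 0.0023 and 50.6% above 0. The 22 ubiquitin genes at that level had a median r of 0.0044. With its sign set aside, r had a median of 0.099 over pairs of all genes at that level. The closest pairs were PSMC3 with PSME3 (r = 0.64, rho = 0.61), PSMB3 with PSMD14 (r = 0.55, rho = 0.51), PSMB3 with PSMB6 (r = 0.49) and PSMC3 with PSMD14 (r = 0.48). The most opposed were PSMA1 with PSMD12 (r = -0.31), PSMD12 with PSMD2 (r = -0.30) and PSMC1A with PSMF1 (r = -0.29). These pools share library scaling and the correction for exposure day. The heatmap of proteasome correlations gives all pairs.

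**Figure D5:**
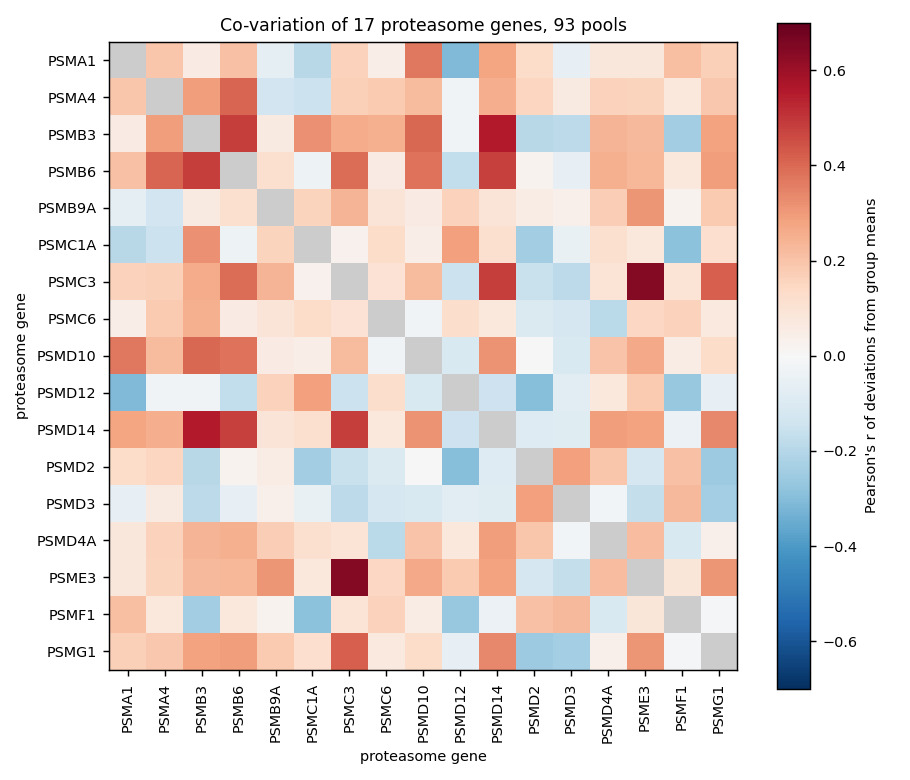
Pearson's r of the deviations from group means between each pair of the 17 proteasome genes with a mean of at least 5 CPM, over 93 pools, in colour from blue (negative) to red (positive), the diagonal in grey. The reddest cells are PSMC3 with PSME3 at 0.64 and PSMB3 with PSMD14 at 0.55.

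A list of 121 further genes of the pathway (ubiquitin-like modifiers, ligase parts, ligases and regulators) was drawn up with earlier results of these data known. Of these, 26 were on the panel. Over the 572 tests of these genes 0 met the DEG thresholds (0.324% of all tests did), and at the adjusted p 0 rose and 2 fell (1.2% of all tests passed in either direction). Both decreases were in UFM1, a ubiquitin-like modifier, which was at a log2FC of -0.53 in 1,2-dimethylnaphthalene (adjusted p = 0.0362). By the F test CDC20 (adjusted p = 0.0474), the activator of the anaphase-promoting complex, and BIRC5A (adjusted p = 0.0157), the zebrafish survivin, differed among the groups, 2 of 26 genes beside 7.95% of all genes. Over all exposed pools DDB2, a damaged-DNA binding subunit of a cullin ligase, was higher than in the controls by 1.90 (adjusted p = 0.0311, beside 2.97% of all genes called). Its mean was low, at 1.96 log2 CPM, and its log2FC ran from 0.89 to 2.51 over the 22 chemicals with no single chemical called (lowest adjusted p 0.0670).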

How the data were processed

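TempO-Seq was run on 94 pools of whole embryos, of which 93 have values. The authors obtained gene counts with the TempO-SeqR platform, summed probes per gene, corrected for exposure and extraction day with ComBat_seq and applied upper-quartile normalization. The deposited values are log2 CPM. The submitters' processing notes name edgeR and GRCz11, with no version. All columns were used. Whole reads were recovered for 100% of values, within 0.02 reads, and 1 read was worth 0.0696 to 0.148 CPM. A deposited table of the authors' comparisons (log2 fold change, mean expression, t, p-value, adjusted p and log-odds) was not used. The table came on a log2 scale, so that no pseudocount was added.

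One limma 3.58.1 model (R 4.3.3, lmFit and eBayes) held the 23 groups, with the 5 control pools as 1 group. P-values were Benjamini-Hochberg adjusted over 3068 genes, and DEGs were those with adjusted p up to 0.05 and log2FC of 1 or more in size. The same fit gave an F test, the contrast of all exposed pools and 26 pairs. Exact permutation tests used scipy 1.17.1 and were run only on member calls already made by limma. P-values measure the spread between pools. The paper describes these as pooled by vial group, without stating that each pool had a vial of its own. By its counts, more pools were collected per treatment than vials remained after those kept for morphology. Some pools may therefore share a vial. The fit was tested on simulated data in which 200 of 3068 genes were changed in 1 group by known amounts. It called 124 genes there, 6 of them falsely, so many of the changes were missed. The simulated noise was drawn separately for each gene. Members and lists were chosen with earlier results of these data known. The rule for named genes took members that were DEGs in a chemical or pair, up to 15 past the adjusted p (22 comparisons, F test or all exposed), the 15 lowest F test p values, and the member of highest mean in each role. Other members named were chosen after their values were seen. Alternatives changed the pseudocount, filter, scaling, controls, variance model, replicate block and pools. Sequences and coordinates are not given, and some results of a member that counts in all totals are not reported here.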

Additional observations from a re-analysis of the deposited data

Results flagged for a closer look

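Within groups of 4 or 5 pools, 7 of 184 groups tested (8 members called in a chemical or by the F test) had a pool far from its neighbours by Dixon's criterion, and chance alone gives about 5% of groups. UBE2G1A was at 6.35 in 2,7-dimethylnaphthalene pool E, where the other pools were at 8.18 to 8.40. FBXO5 was at 6.96 in 1,3-dimethylnaphthalene pool E (others 6.04 to 6.18) and at 5.55 in pool B of the tetramethyl compound (others 5.87 to 5.92). UBE2T was at 5.26 in pool D of the compound with methyl groups at positions 2, 4 and 5 (others 5.61 to 5.65). PSMB6 was at 8.16 in 2-isopropylnaphthalene pool D (others 8.36 to 8.40). FBXO22 was at 5.96 in 1,4-dimethylnaphthalene pool E (others 6.15 to 6.19) and at 6.01 in 2,7-di-tert-butylnaphthalene pool C (others 5.78 to 5.82).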

How the results depend on the processing

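The 4 DEG calls, all of UBE2G1A, became 0 when each chemical was fitted with the controls alone (over all genes and chemicals, 53 DEG calls in place of 219, and 109 calls in place of 811 at the adjusted p) and 1, UBE2T in 2-butylnaphthalene, with control pools of the same day. Member calls at the adjusted p alone went from 15 to 1 and 8 in those settings. With only genes of at least 5 CPM tested, UBE2Q2 in 1,4-dimethylnaphthalene became a DEG, as a decrease (log2FC -1.06, adjusted p = 0.0426). DEGs over pairs went from 2 to 0 with only the compared groups, and to 1 with log2(CPM + 1), with voom and with the replicate block. Members called over all exposed pools went from 1 to 0 with voom. No estimate of a named call changed sign in any setting. Leaving out each of the 93 pools gave 0 to 5 DEG calls and 5 to 18 calls at the adjusted p. It also gave 5 to 8 members by the F test, 0 to 2 over all exposed pools and 1 to 3 over pairs. Without control day 1 pool A there were 0 DEG calls and 5 at the adjusted p, and without control day 2 pool A there were 2 and 8. The causes were not tested.

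The pool letters pair no samples in the labels. Pools of the same letter and day had a median r of deviations of 0.0024, and pools of other letters -0.00096, and with the letter as a block there were 6 DEG calls (UBE2G1A also in 1,2-dimethylnaphthalene and the compound methylated at positions 2, 4 and 5), 15 calls at the adjusted p and 6 members by the F test. The block ended the calls of FBXO5 in 1,2-dimethylnaphthalene (adjusted p = 0.0669), 2-butylnaphthalene (0.0575) and FBXO5 in all exposed pools (0.0589), of UBE2G1A between 1,7-dimethylnaphthalene and 1-methylnaphthalene (0.0727), of USP7 between 1,7- and 1,5-dimethylnaphthalene (0.0508) and of UBE2A between 2,6-diisopropylnaphthalene and naphthalene (0.0656). The 8 members under 5 CPM were limited by low counts, the cause of which was not tested.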
